A study of Rattus norvegicus with 9 samples.

Results

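Cerebellins, neurexins and neuroligins are the proteins that join the 2 sides of a synapse. The 8 genes described here are the secreted cerebellins Cbln1, Cbln2 and Cbln4, the delta glutamate receptor gene Grid1, the presynaptic neurexins Nrxn2 and Nrxn3, and the postsynaptic neuroligins Nlgn1 and Nlgn3. They were taken by symbol from the 30507 rows of the count table, each symbol was found once as a gene, and all 8 passed the filter on low counts, as did 18077 rows of the table. The genes were picked with measured values of these data in view, and the selection does not say which comparison it used. Their levels and fold changes are therefore given as a description, with no p-value for any of them. Where a number of these genes called by a test is given, it stands beside the share of all genes called, and nothing is read from it.

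The libraries came from female Sprague-Dawley rats that were 8 weeks old at the start, with 3 rats in each of 3 groups and 1 library per rat. Sham rats had a laminectomy without contusion according to the methods, while the labels call them untreated. SCI rats had a contusion at T10. SCI + SCS rats had the same contusion, an epidural electrode advanced caudally from the injury site, and stimulation at 10 kHz for 2 h daily from 1 day post-injury (dpi). Tissue was the T9 to T11 cord at 35 dpi in all groups, so it held the lesion itself in both injured groups. No library of a group with an electrode and no current was analysed here, so stimulation and the implanted electrode cannot be told apart. Whether the rats were operated on in separate sessions is not given, and the spread between libraries is the spread between these rats.

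Neurexins sit in the presynaptic membrane and reach across the cleft to several kinds of postsynaptic protein. Neuroligins bind them directly. Cerebellins are secreted proteins of the C1q family that bind a neurexin on one side and a delta glutamate receptor on the other, which makes a bridge of neurexin, cerebellin and receptor. In the spinal cord these proteins are known mainly from neurons, and Cbln2 and Cbln4 mark sets of dorsal horn neurons, while neurexins and neuroligins are also found in glia.

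Each library held 62844376 to 88358570 counts, and 3 counts, the limit that a count of 0 allows, correspond to 0.0340 to 0.0477 CPM (counts scaled to a library of 1e+06). The 12 neuron markers, among them Rbfox3, Snap25 and Syt1, were all detected and took 0.545 to 1.09% of counts in Sham, 0.118 to 0.270% in SCI and 0.284 to 0.443% in SCI + SCS libraries. Oligodendrocyte markers took 5.63 to 8.11%, 1.79 to 3.02% and 3.07 to 3.62% in the same order. Skeletal muscle markers took 0.455% of counts in SCI replicate 1 and 0.129% in SCI replicate 3, against at most 0.0152% in the other libraries. The symbols Myh2 and Myh4 matched the same row, and these shares count that row for each of them. Removing the muscle and adipocyte markers before normalization left the edgeR counts, at an adjusted p under 0.05, of the 8 genes and of the other trans-synaptic genes as they were. The DESeq2 counts, the counts at an unadjusted p, those of cell type markers and the shares over all genes were not recomputed.

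Cbln1, the cerebellin first known from cerebellar granule cells, had the highest level of the cerebellins. Its TMM-normalized level was 47.9, 46.0 and 79.7 CPM in the Sham libraries, 12.7, 11.3 and 8.92 CPM in SCI and 16.6, 30.9 and 23.4 CPM in SCI + SCS. The 3 groups did not overlap, and Sham replicate 3 stood above the other Sham libraries. The mean fell short of Sham in both injured groups, at 19.0% of it in SCI and 40.9% in SCI + SCS. In bulk tissue, fewer cells of a type and less RNA per cell cannot be told apart.

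Cbln2, a cerebellin of dorsal horn and brain neurons, was read at 33.5, 26.3 and 17.8 CPM in Sham, at 4.37, 4.40 and 4.10 CPM in SCI and at 7.10, 11.7 and 12.4 CPM in SCI + SCS. The SCI libraries had a coefficient of variation of 3.77%, the smallest of the 8 genes in that group, and the 3 groups were separate. Cbln4, which also binds the netrin receptors DCC and neogenin, was the lowest cerebellin. Its level was 6.89, 8.93 and 5.88 CPM in Sham, 2.58, 1.90 and 1.13 CPM in SCI and 3.03, 2.94 and 3.78 CPM in SCI + SCS, again with no overlap, although the gap between the highest SCI and the lowest SCI + SCS library was small.

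The Cbln4 promoter is shown because it is the member promoter whose listed start lies at the outer edge of the gene in the RefSeq annotation of the same build. RefSeq promoters were given for 4 of the 8 genes (Cbln2, Cbln4, Nlgn1 and Nlgn3). The 250 bases before the Cbln4 start on GRCr8, chr3:181225601-181225850 on the minus strand, are printed 5′ to 3′, and capitals mark 2 overlapping Sp1 boxes on the reverse strand, which lie 128 and 123 bases before the start.
Cbln4: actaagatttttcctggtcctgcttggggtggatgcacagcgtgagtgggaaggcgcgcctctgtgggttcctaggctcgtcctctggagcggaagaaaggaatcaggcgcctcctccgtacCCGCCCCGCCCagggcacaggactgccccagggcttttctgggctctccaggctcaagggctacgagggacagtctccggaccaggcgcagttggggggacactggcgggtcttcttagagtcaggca
An Sp1 box (GGGCGG, searched on both strands) was present in 30.5% of 33469 promoters of this length. The Cbln4 window had a GC content of 63.2%, against a median of 51.2%, and of the other motifs searched it held no match. Those were the TATA box (TATAAA), which 12.9% of promoters held on either strand, the CCAAT box (34.0%), the cAMP response element (TGACGTCA, 1.59%) and an E-box with the letters CAGCTG, which was in 4007 of the 33469 promoters.

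Grid1 encodes the delta receptor GluD1, a postsynaptic receptor for cerebellins. It was measured at 26.0, 24.2 and 25.2 CPM in Sham, 10.8, 11.9 and 7.54 CPM in SCI and 11.996, 20.4 and 18.3 CPM in SCI + SCS. The Sham libraries were close together, and SCI + SCS replicate 1 lay only just above the highest SCI library. Its mean was 40.1% of Sham in SCI and 67.2% in SCI + SCS, the smallest deficit in the SCI + SCS group among the 8 genes. A row of the ribosomal protein gene Rpl38 lies on the opposite strand within Grid1 and held 920 counts over all libraries, against 11657 for Grid1. Whether counting used the strand is not given in the sources used here.

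Nrxn2 gave the largest number of reads of the 8 genes, with 11262 to 13036 counts per Sham library. Its level was 177, 148 and 129 CPM in Sham, 70.5, 63.5 and 47.5 CPM in SCI and 83.0, 99.0 and 113 CPM in SCI + SCS. Nrxn3, the neurexin gene with the longest span in the table (1630 kb), was at 32.7, 23.8 and 13.7 CPM in Sham, 2.35, 3.62 and 2.64 CPM in SCI and 5.19, 11.05 and 10.3 CPM in SCI + SCS. Both neurexins had separate groups, and the mean in SCI was 39.9% of Sham for Nrxn2 and 12.2% for Nrxn3. In SCI + SCS these shares were 64.8% and 37.7%.

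Nlgn1, a neuroligin of excitatory synapses, was the scarcest of the 8 genes. It was counted 330, 429 and 355 times in the Sham libraries, 31, 18 and 36 times in SCI and 86, 180 and 128 times in SCI + SCS, or 4.71 ± 0.581, 0.390 ± 0.132 and 1.92 ± 0.677 CPM (mean ± SD, n = 3). The SCI level was 8.28% of Sham, the lowest share among the 8 genes, and the SCI + SCS level was 40.8%. Nlgn3, found at excitatory and inhibitory synapses and in glia, was at 32.0, 33.1 and 27.2 CPM in Sham, 5.47, 8.71 and 6.85 CPM in SCI and 8.43, 14.3 and 13.9 CPM in SCI + SCS. Nlgn3 was the one gene of the 8 whose SCI and SCI + SCS libraries overlapped, since SCI + SCS replicate 1 lay below SCI replicate 2.

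**Figure D1:**
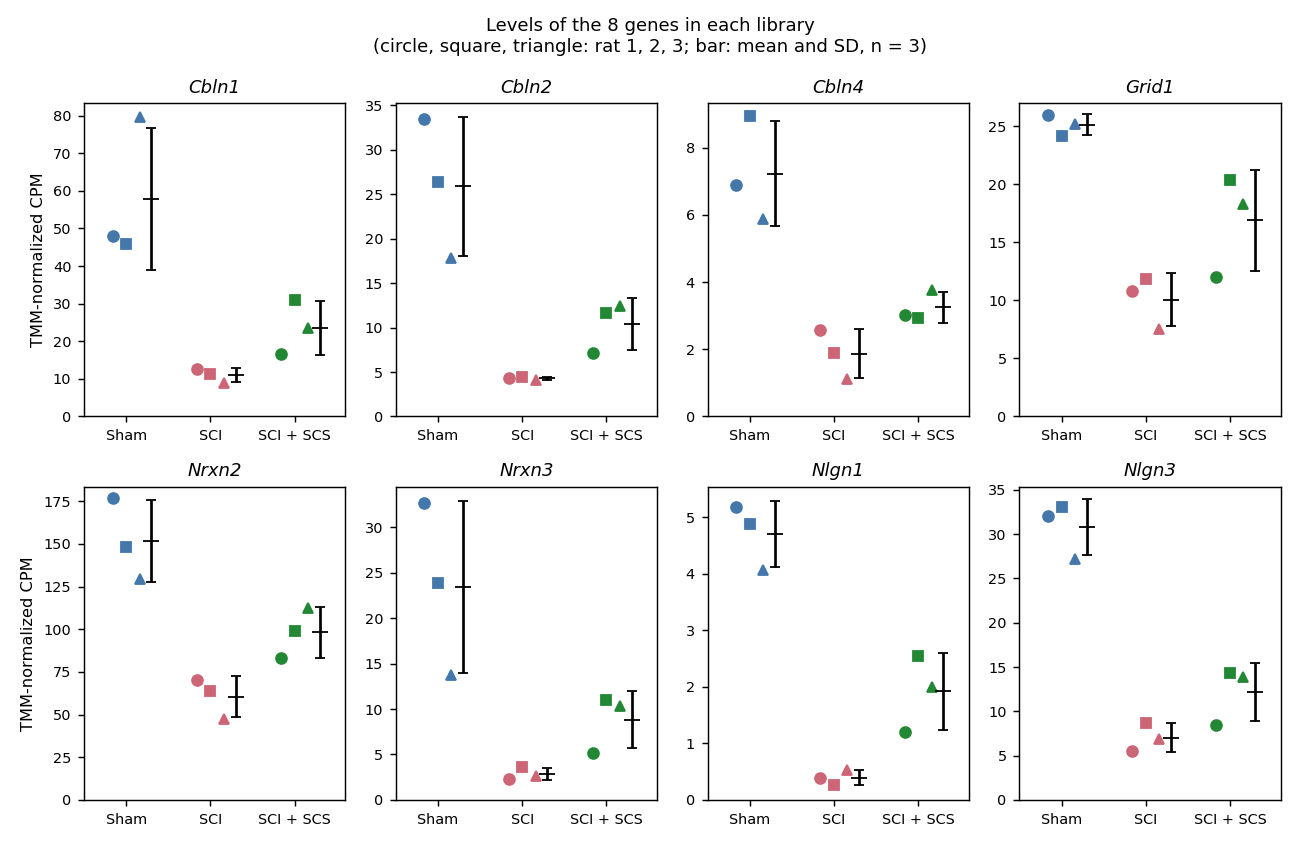
TMM-normalized CPM (vertical axis) of each of the 8 genes in the 9 libraries, by group; symbols are single rats and bars give the mean and SD of 3 rats. All Sham libraries lie above all SCI and SCI + SCS libraries for every gene, and SCI + SCS replicate 1 (circle) is the lowest SCI + SCS library for 7 of them.

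The comparison of SCI with Sham asks how the contused cord differed from uninjured cord. All 8 genes were lower on TMM scaling, between 2.53-fold for Grid1 and 12.2-fold for Nlgn1, while scaling on neuron markers turned Cbln4, Grid1, Nrxn2 and Nlgn3 to higher. On the log2 scale the edgeR fold changes (log2FC) were -2.41 ± 0.26 (SE) for Cbln1, -2.61 ± 0.25 for Cbln2, -1.97 ± 0.34 for Cbln4, -1.34 ± 0.18 for Grid1, -1.34 ± 0.19 for Nrxn2, -3.05 ± 0.36 for Nrxn3, -3.61 ± 0.32 for Nlgn1 and -2.15 ± 0.20 for Nlgn3. By edgeR at an adjusted p under 0.05, 8 of 8 were called lower, while 25.0% of 17822 genes tested were. The libraries of the 2 groups did not overlap for 8 of 8, which held in this direction for 31.0% of genes tested. The median log2FC of the 8 genes was -2.28, and that of all genes tested was 0.02. On neuron marker scaling, Cbln4 (0.19 ± 0.55, SE) and Nlgn3 (0.16 ± 0.50) lay within their SE of 0.

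The comparison of SCI + SCS with SCI asks how stimulated injured cord differed from injured cord. Here the same SCI libraries serve as the reference, so low SCI values enter both comparisons with opposite sign. The log2FC was 1.11 ± 0.24 (SE) for Cbln1, 1.28 ± 0.23 for Cbln2, 0.80 ± 0.32 for Cbln4, 0.76 ± 0.25 for Grid1, 0.71 ± 0.17 for Nrxn2, 1.63 ± 0.32 for Nrxn3, 2.31 ± 0.41 for Nlgn1 and 0.81 ± 0.26 for Nlgn3. In linear terms the levels were 1.63-fold (Nrxn2) to 4.94-fold (Nlgn1) those in SCI, and scaling on neuron markers turned Cbln4, Grid1, Nrxn2 and Nlgn3 to lower. Each of these turned values, from -0.18 ± 0.50 (SE) for Cbln4 to -0.37 ± 0.44 for Nlgn3, lay within its SE of 0. None of the 8 genes was called by edgeR (0 of 8), where 0.00566% of 17663 genes tested, a single gene, were called higher. That gene has no symbol in the table and, looked up after its values were seen, had 0 counts in each SCI library and 1165 to 1552 counts in each of the others. At an unadjusted p under 0.05 the count was 8 of 8, against 13.3% of genes tested. DESeq2, the tool named by the study, called 7 of 8, against 8.83%. This count used an adjusted p under 0.05 without the study's threshold of 1 on |log2FC|. In a simulation of this comparison with 100 genes changed 2-fold and 100 changed 4-fold, 67 of 216 DESeq2 calls were false. There edgeR recovered 40% of genes changed 2-fold. In the data DESeq2 called 1457 genes higher and 1138 lower, far more than were changed in the simulation, so these shares do not carry over. With limma on log2(FPKM + 1) or log2(FPKM + 0.1), 0 of 8 were called. Groups did not overlap for 7 of 8, against 15.7%. Without SCI + SCS replicate 1, the library with the lowest level of most of these genes, edgeR called 2 of the 8, only just under the threshold. Leaving out any other library called none of them. None of these counts is evidence about the 8 genes, which were picked from these data.

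The comparison of SCI + SCS with Sham asks what difference from uninjured cord was present in the stimulated group. All 8 genes were lower than in Sham on TMM scaling, with no overlap of libraries in 8 of 8 (26.0% of genes tested), while scaling on neuron markers turned Cbln4, Grid1 and Nrxn2 to higher. On that scaling Cbln4 was at 0.010 ± 0.40 (SE), Grid1 at 0.53 ± 0.38 and Nrxn2 at 0.54 ± 0.34. The log2FC was -1.29 ± 0.30 (SE) for Cbln1, -1.31 ± 0.30 for Cbln2, -1.15 ± 0.21 for Cbln4, -0.57 ± 0.19 for Grid1, -0.62 ± 0.16 for Nrxn2, -1.40 ± 0.40 for Nrxn3, -1.29 ± 0.30 for Nlgn1 and -1.33 ± 0.22 for Nlgn3. By edgeR 7 of 8 were called lower, against 16.2% of 17640 genes tested, and nothing is read from this count either. That count was 3 without Sham replicate 2 or without SCI + SCS replicate 1, and 4 without SCI + SCS replicate 2 or 3. For 6 of the 8 genes the log2FC values lay close together, between -1.15 and -1.40, although these 6 genes ranged from -1.97 to -3.61 against Sham in SCI.

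**Figure D2:**
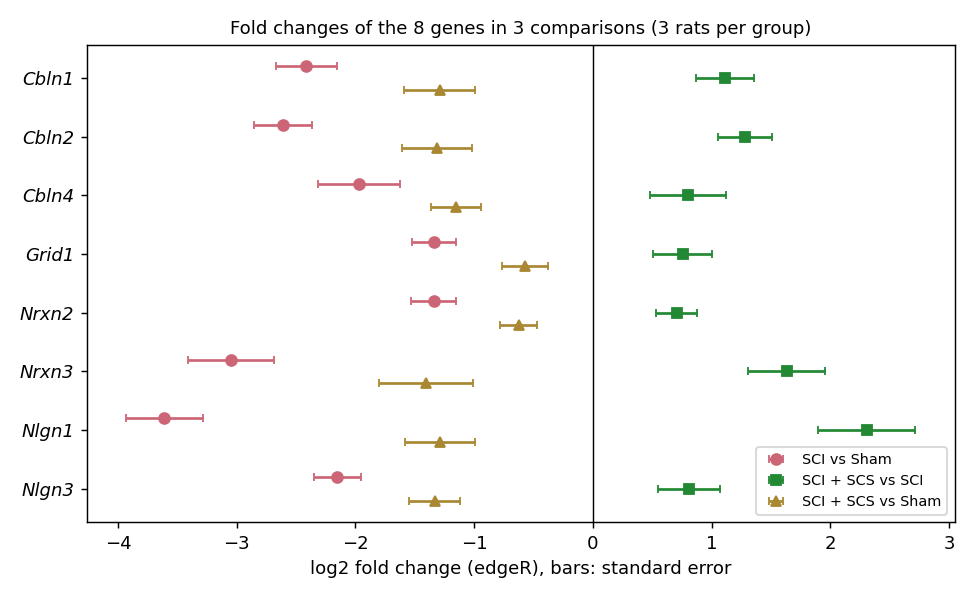
log2 fold changes from edgeR (horizontal axis) of the 8 genes in the 3 comparisons, with bars for the standard error. The SCI vs Sham values run from -3.61 to -1.34, the SCI + SCS vs SCI values from 0.71 to 2.31, and the SCI + SCS vs Sham values from -1.40 to -0.57; each pair of comparisons shares 1 group of libraries.

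Levels between genes were compared on the authors' FPKM, which divides by transcript length. In Sham cord the order was Nrxn2 (27.2 ± 4.38 FPKM, mean ± SD, n = 3), Cbln1 (18.6 ± 6.10), Cbln2 (8.81 ± 2.57), Nlgn3 (7.93 ± 0.870), Grid1 (5.94 ± 0.0795), Nrxn3 (2.70 ± 1.06), Cbln4 (2.001 ± 0.467) and Nlgn1 (0.993 ± 0.117). Of the neighbouring pairs, 3 overlapped, namely Nrxn2 with Cbln1, Cbln2 with Nlgn3, and Nrxn3 with Cbln4. In both injured groups Nrxn2 and Cbln1 stayed first and second and Nlgn1 last, at 12.5, 3.50 and 0.0795 FPKM in SCI and at 19.5, 7.80 and 0.409 FPKM in SCI + SCS. Grid1 took the third place in each, with 2.37 FPKM in SCI and 4.09 FPKM in SCI + SCS, but its libraries overlapped those of the next gene in the order.

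The lengths that the FPKM values imply were nearly constant for 6 genes, with the longest at most 1.10 times the shortest over the 9 libraries. For the neurexins they were not. The implied length of Nrxn3 ran from 5.38 kb to 10.2 kb, and that of Nrxn2 was 5.49 ± 0.108 kb in Sham, 4.81 ± 0.0975 kb in SCI and 5.13 ± 0.508 kb in SCI + SCS (mean ± SD, n = 3). For Nrxn2 the Sham and SCI libraries did not overlap, and the SCI + SCS libraries overlapped both. Neurexin genes produce long and short transcripts from separate promoters, and transcript levels were not analysed here. Nrxn2 and Nrxn3 FPKM therefore rest on a length that differs by library, while their CPM values do not.

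Neuron markers moved with the 8 genes. All 12 were called lower in SCI than in Sham by edgeR, against 25.0% of genes tested, with a median log2FC of -1.999. Oligodendrocyte markers fell too, with 6 of 7 called lower and a median of -1.26. Fibroblast markers went the other way, with 6 of 6 called higher. The inhibitory markers, such as Gad1 and Slc32a1, had 6 of 6 called lower with a median of -2.44, the excitatory markers 4 of 6 with -2.15, and the motor neuron markers 4 of 5 with -2.34. In SCI + SCS against SCI, 0 of 12 neuron markers were called by edgeR, and the median was 0.91. At an unadjusted p under 0.05, 6 were higher (13.3% of genes tested), and DESeq2 called 5 higher (8.83%). Oligodendrocyte markers had 0 of 7 called by edgeR, 4 higher by DESeq2 and a median of 0.42. The part of any of these cell types in the values of the 8 genes was not tested.

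The 8 genes were also divided by the geometric mean of the 12 neuron markers in the same library. The markers themselves had log2FC values from -3.74 to -0.70 in SCI vs Sham. With edgeR scaled on them, the log2FC in that comparison was 0.90 ± 0.49 (SE) for Nrxn2, 0.86 ± 0.50 for Grid1, -0.64 ± 0.51 for Nrxn3 and -1.24 ± 0.65 for Nlgn1. The median of all genes tested was 2.28 on that scaling, above the values of Nrxn2 and Grid1. The share of all genes whose groups separated on this scale is not reported here, so nothing is read from separation below. Nrxn2 stood at 53.9 ± 11.4 CPM per 100 CPM of neuron markers in Sham, 101 ± 16.7 in SCI and 78.4 ± 7.13 in SCI + SCS, and its SCI libraries all exceeded its Sham libraries. Grid1 followed the same order, at 9.26 ± 3.35, 16.8 ± 3.17 and 13.4 ± 2.47. Its lowest SCI library (13.12) lay only just above its highest Sham library (13.05). Nlgn1 went the other way, at 1.68 ± 0.386, 0.724 ± 0.501 and 1.51 ± 0.449. Every SCI library lay below every Sham library, by a small margin (highest SCI 1.301, lowest Sham 1.340). Nrxn3 was at 7.82 ± 0.678, 5.02 ± 1.94 and 6.87 ± 1.76, and its SCI libraries also lay below those of Sham.

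The cerebellins and Nlgn3 kept overlapping groups on that scale. Cbln2 was at 8.64, 8.72 and 9.19 per 100 in the Sham libraries, a narrow range although its CPM there ran from 17.8 to 33.5. Its means were 8.85 ± 0.298 in Sham, 7.45 ± 2.54 in SCI and 8.14 ± 1.03 in SCI + SCS. Cbln4 was at 2.59 ± 0.706, 2.96 ± 0.159 and 2.61 ± 0.437, and Nlgn3 at 11.1 ± 2.90, 12.4 ± 5.31 and 9.60 ± 1.53. Cbln1 was at 12.4, 15.2 and 41.2 per 100 in Sham. The third of these came from the Sham library with the fewest neuron marker reads, which had the highest Cbln1 level of all, so Cbln1 and the neuron markers did not follow each other within the Sham group.

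**Figure D3:**
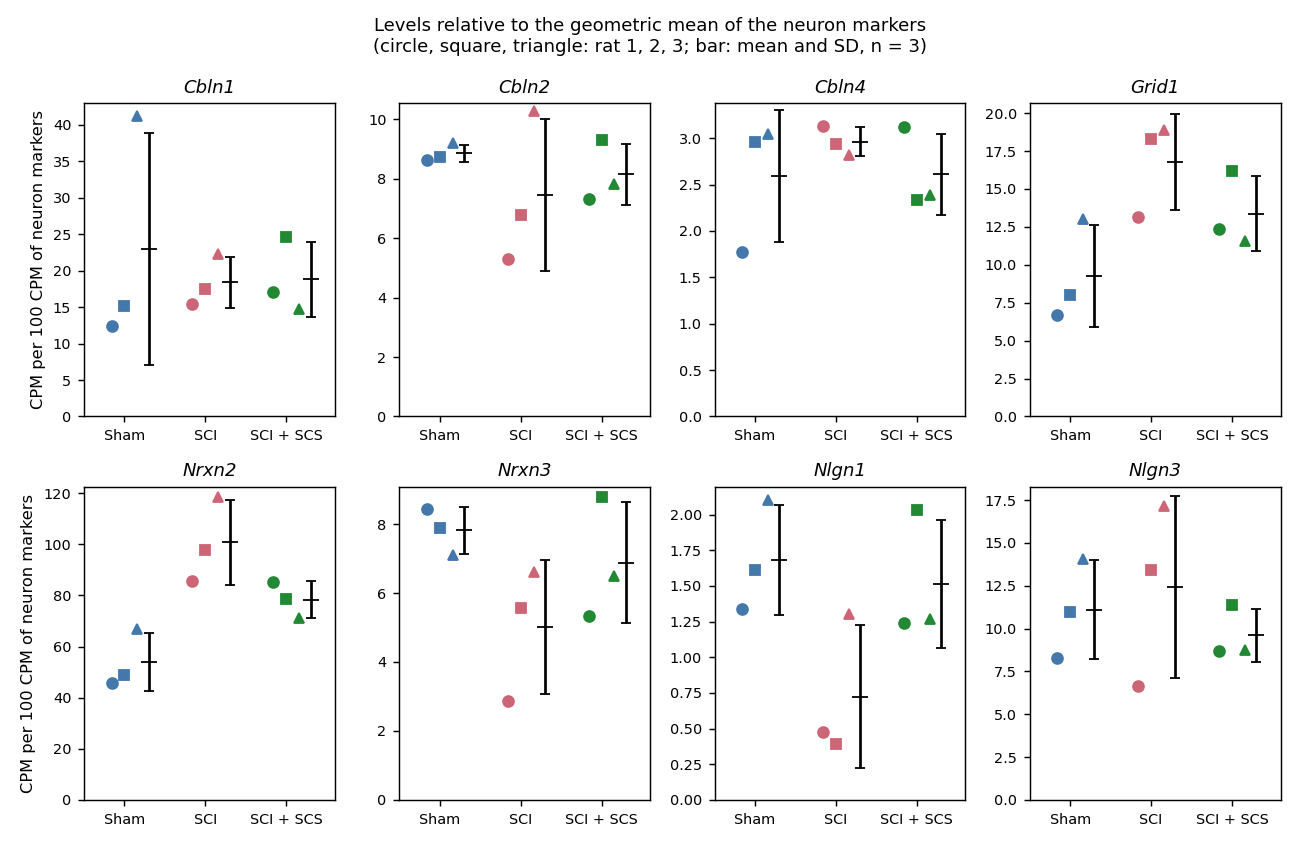
CPM of each gene per 100 CPM of the geometric mean of 12 neuron markers in the same library (vertical axis); symbols are single rats and bars give the mean and SD of 3 rats. Nrxn2 and Grid1 are higher and Nrxn3 and Nlgn1 lower in all 3 SCI libraries than in the Sham libraries, and the groups overlap for the other 4 genes. The median log2FC of all genes tested in SCI vs Sham was 2.28 when scaled on these markers.

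Counts of related genes were also set against each other within a library, which needs no scaling. These pairs were chosen after the values were seen. Nlgn1 counts were 16.2, 14.7 and 14.9% of Nlgn3 counts in Sham, 7.19, 2.93 and 7.59% in SCI and 14.3, 17.9 and 14.4% in SCI + SCS. The SCI libraries lay below both other groups, which overlapped each other. Nrxn3 counts were 15.1 ± 4.04% of Nrxn2 counts in Sham, 4.86 ± 1.33% in SCI and 8.85 ± 2.47% in SCI + SCS, with SCI apart from both other groups and with SCI + SCS replicate 2 (11.2%) above Sham replicate 3 (10.6%). For the cerebellins, Cbln2 was 49.8 ± 24.7%, 39.8 ± 5.86% and 44.5 ± 7.75% of Cbln1, and Cbln4 13.7 ± 6.05%, 16.6 ± 3.84% and 14.6 ± 4.57%, with overlap between all groups.

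**Figure D4:**
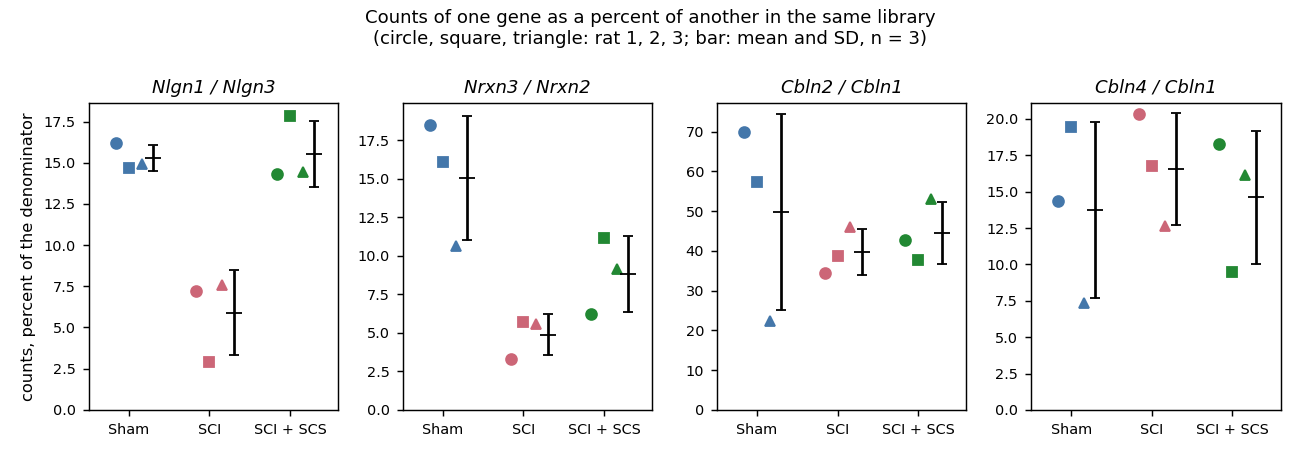
Counts of one gene as a percentage of the counts of a related gene in the same library (vertical axis), by group; symbols are single rats and bars give the mean and SD of 3 rats. The SCI libraries lie below all others for Nlgn1 over Nlgn3 and for Nrxn3 over Nrxn2, and the groups overlap for both cerebellin pairs.

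Genes related to these 8 by family or by role were followed next. Cbln3, a cerebellin of cerebellar granule cells, had 0 to 6 counts per library and was not tested. Nlgn2 was not analysed here.

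The list of other trans-synaptic genes held 92 genes with the paralogues included, of which 89 were analysed. In SCI against Sham, edgeR called 59 lower and 4 higher of 87 tested, with a median log2FC of -1.08. Over all genes tested, 25.0% were called lower and 24.3% higher. Most groups of the list had a majority of members that fell, and the C1q-like, netrin-G, teneurin and LAR ligand groups each held 1 member that rose.

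Among other postsynaptic neurexin ligands, 5 of 7 fell. Clstn3 and Clstn2, calsyntenins that promote synapse formation, fell by 3.03 ± 0.36 and 2.94 ± 0.22 on the log2 scale (edgeR adjusted p = 0.00192 and 0.00104), and Lrrtm2, a leucine-rich repeat ligand of neurexins, was at -2.204 ± 0.28 (adjusted p = 0.00211). Secreted or cis-acting neurexin ligands fell in 4 of 6 cases, among them Car10 by 2.19 ± 0.30 (adjusted p = 0.00244) and Nxph4 by 2.04 ± 0.46 (adjusted p = 0.0115). Nxph2, a neurexophilin, was near the limit of counting, with 41 to 55 counts in Sham, 0 to 7 in SCI and 13 to 19 in SCI + SCS. Of the neuroligin blockers, Mdga2 fell by 2.83 ± 0.33 (adjusted p = 0.00180), while Mdga1 was not called.

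The C1q-like proteins are relatives of the cerebellins, grouped here with the adhesion receptor genes Adgrb1, Adgrb2 and Adgrb3, and this group was mixed. It had 5 of 7 members lower and 1 higher. C1ql1, the one that rose, was at 39.1 ± 11.8 CPM in Sham, 108 ± 13.1 CPM in SCI and 95.4 ± 15.6 CPM in SCI + SCS, and it was higher than in Sham in both injured groups (log2FC 1.45 ± 0.23 and 1.29 ± 0.24, edgeR adjusted p = 0.00344 and 0.0115). Its receptor gene Adgrb3 fell by 1.56 ± 0.22 in SCI (edgeR adjusted p = 0.00278). C1ql4 was counted 16 to 25 times in Sham and 0 to 3 times in SCI. Of the other receptors of Cbln4, Neo1 fell by 0.84 ± 0.23 (edgeR adjusted p = 0.0213), and Dcc, at -1.73 ± 0.63, was not called (adjusted p = 0.0580).

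Intracellular scaffolds, which hold these proteins in the synapse, fell in 13 of 16 cases and rose in 0. The neuronal adaptor Apba1 fell by 3.27 ± 0.51, the postsynaptic scaffold Shank1 by 2.89 ± 0.45 and Dlg2 by 1.98 ± 0.23 (edgeR adjusted p = 0.00352, 0.00331 and 0.00185). All 3 neuronal pentraxins, which gather AMPA receptors, fell, with Nptx1 at -2.50 ± 0.31 (adjusted p = 0.00206), Nptx2 at -2.17 ± 0.48 (0.0112) and Nptxr at -1.07 ± 0.20 (0.00658). Of 5 genes that splice or shed neurexins, 2 were called, namely Khdrbs2 and Khdrbs3, which encode the STAR splicing factors SLM1 and SLM2 and fell by 2.66 ± 0.30 and 0.94 ± 0.11 (edgeR adjusted p = 0.00163 and 0.00181).

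Other adhesion systems of the synapse were lower in part. Latrophilins, FLRTs and teneurins had 5 of 10 lower and 1 higher, among them Tenm4 (-2.98 ± 0.37, edgeR adjusted p = 0.00202), Tenm1 (-2.84 ± 0.52, 0.00577) and Adgrl1 (-1.64 ± 0.17, 0.00143), with Flrt2 higher (0.93 ± 0.23, 0.0171). Ligands of the LAR receptor phosphatases had 10 of 13 lower, among them Slitrk6, Slitrk1 and Slitrk3 at -3.09 ± 0.31, -2.91 ± 0.40 and -2.83 ± 0.47 (edgeR adjusted p = 0.00138, 0.00250 and 0.00411), and Lrfn4 higher at 0.73 ± 0.13 (0.00503). The phosphatases themselves had 2 of 3 lower, Ptprd (-2.17 ± 0.20, edgeR adjusted p = 0.00120) and Ptprs (-0.47 ± 0.15, 0.0372). Of the netrin-G group, Lrrc4c (-1.24 ± 0.21, edgeR adjusted p = 0.00469) and Ntng1 (-1.03 ± 0.21, 0.00793) were among 3 of 5 lower, and Ntng2 was higher (0.90 ± 0.19, 0.00867). SynCAM and IgSF9 proteins fell in 3 of 6 cases, all of them SynCAMs, namely Cadm2, Cadm3 and Cadm1 at -1.56 ± 0.26, -0.95 ± 0.21 and -0.95 ± 0.18 (edgeR adjusted p = 0.00424, 0.0113 and 0.00644).

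In SCI + SCS against SCI, edgeR called 0 of 86 genes of the list. At an unadjusted p under 0.05, 48 were higher and 2 lower (13.3% and 10.9% of all genes tested). DESeq2 at an adjusted p under 0.05, with no threshold on |log2FC|, called 34 higher and 0 lower (8.83% and 6.90%). The median log2FC was 0.55, while that of all genes tested was -0.01. The smallest p-values belonged to Clstn3 (1.57 ± 0.26), Nptx1 (1.39 ± 0.24) and Car10 (1.39 ± 0.25), each with an edgeR adjusted p of 0.0719, and to Adgrb3 (0.97 ± 0.18, adjusted p = 0.0755). Clstn3 was at 19.2 ± 5.40 CPM in SCI and 56.6 ± 14.7 CPM in SCI + SCS, with 155 ± 63.6 CPM in Sham. Without SCI + SCS replicate 1, Clstn3, Nptx1 and Car10 were called, each only just under the threshold (edgeR adjusted p = 0.0499). Leaving out any other library called none of the list.

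In SCI + SCS against Sham, edgeR called 37 of 87 genes lower and 3 higher, against 16.2% in each direction over all genes tested, and the median log2FC was -0.65. Slitrk6 had the largest log2FC of those called (-2.43 ± 0.23, edgeR adjusted p = 0.00336), Clstn2 was at -1.60 ± 0.25 (0.00824) and Tenm4 at -1.76 ± 0.32 (0.0113). The 3 higher genes were C1ql1, Ntng2 (0.75 ± 0.17, edgeR adjusted p = 0.0199) and Lrfn4 (0.51 ± 0.11, 0.0181), which were also among the 4 higher genes in SCI. Both comparisons use the same Sham libraries, so the recurrence is not independent. With the replicate block, C1ql1 alone of these 3 was called. Adgrb3 at -0.58 ± 0.21 was not called against Sham here (adjusted p = 0.0804). The number called lower was 21 without Sham replicate 1, 10 without Sham replicate 2, and 12, 13 and 24 without SCI + SCS replicates 1, 2 and 3.

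**Figure D5:**
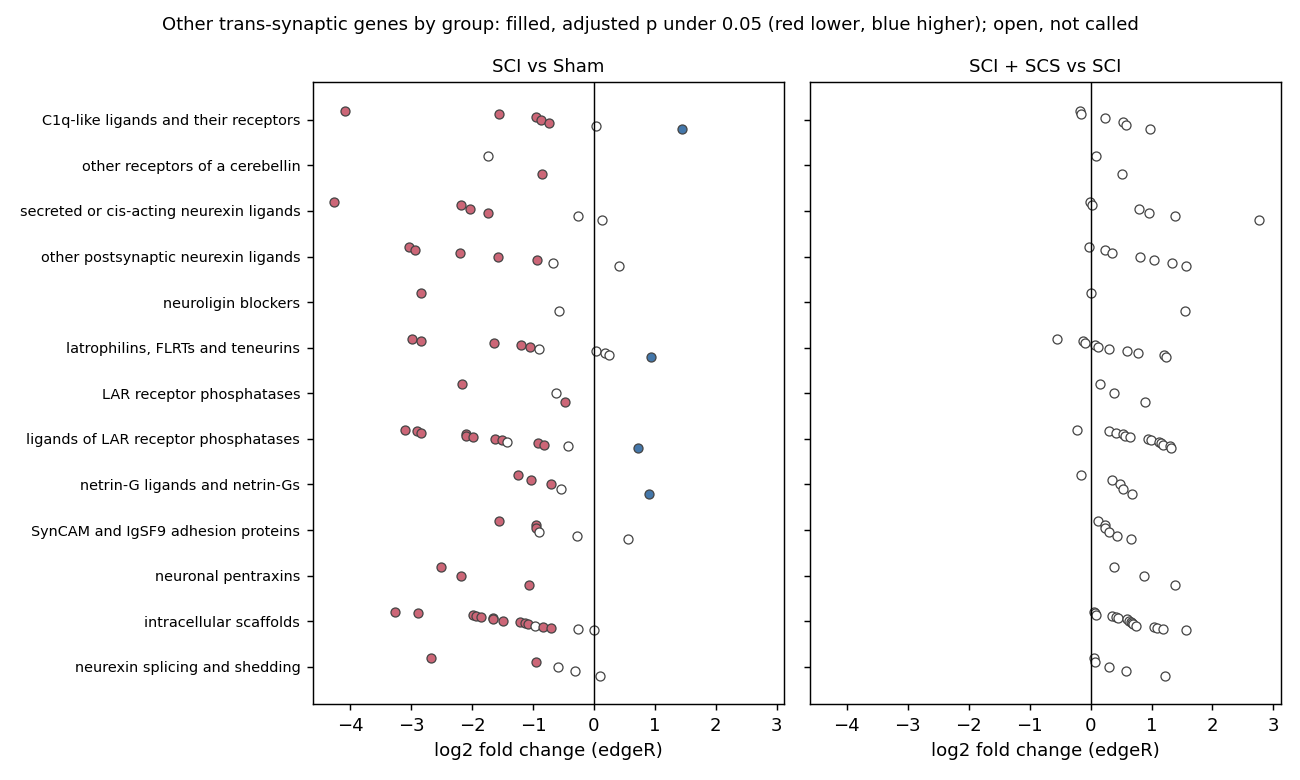
log2 fold changes from edgeR (horizontal axis) of the other trans-synaptic genes by group, paralogues left out, in SCI vs Sham (left) and SCI + SCS vs SCI (right); filled points have an adjusted p under 0.05, red for lower and blue for higher. In SCI vs Sham 57 genes are filled red and 4 blue, and in SCI + SCS vs SCI none is filled; the points beyond -4 and the one beyond 2 belong to C1ql4 and Nxph2, which had at most 7 counts in any SCI library.

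The genes whose level followed each of the 8 most closely over the 9 libraries were taken from 14071 candidates by Pearson's r of log2(CPM + 0.5). All values share the same 9 libraries and the same 3 group means, so r is given as a description. For Nrxn2 they included Rtn1 and Tmem151b (r = 0.997 and 0.996). For Nrxn3 they were Pclo, which encodes the presynaptic protein piccolo, Golga7b and Ncdn (0.996, 0.995 and 0.995). For Cbln2 they were Sall2, Dnajc27 and Mdga2 (0.999, 0.999 and 0.998), and for Nlgn3 they were Tenm4, Aff2 and Pals1 (0.999, 0.996 and 0.996). Mdga2 and Tenm4 are also on the list of trans-synaptic genes.

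The other genes had the following neighbours by the same measure. Cbln1 was followed by Cpm, Gpr62 and Cpox (r = 0.995, 0.995 and 0.991), Cbln4 by Kif21a, Eps15 and Them4 (0.988, 0.987 and 0.986), Grid1 by Mesp2, Adap1 and Sema7a (0.986, 0.986 and 0.984) and Nlgn1 by Mkrn2, Actr3b and Myrip (0.993, 0.988 and 0.985). Ranked instead by deviations from the group means, 2 of these 24 genes stayed in the first 3 of their member, Sall2 for Cbln2 and Tenm4 for Nlgn3. Between the 8 genes themselves, r ran from 0.884 to 0.992 over 28 pairs with a median of 0.935, and for deviations from the group means from -0.08 to 0.948 with a median of 0.499.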

How the data were processed

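Total RNA from T9 to T11 spinal cord was sequenced from 3 Sham, 3 SCI and 3 SCI + SCS rats, grouped by the labels. The submitters' processing notes name fastp 0.23.2, HISAT2 2.2.1 and mRatBN7.2. The counting program is not given in the sources used here. The authors deposited raw counts per gene and FPKM, which scale counts by length and library total. The genes and lists were chosen with earlier results of these data known.

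All rows were fitted with edgeR 4.0.16 in R 4.3.3 (quasi-likelihood test, TMM, filterByExpr, 6 libraries per comparison, no covariates), with Benjamini-Hochberg adjustment and a threshold of 0.05. SE was |log2FC| over the root of F, and CPM used TMM factors from the 9 libraries together. Alternatives were DESeq2 1.42.0, limma 3.58.1 on log2(FPKM + 1) and log2(FPKM + 0.1) at a mean FPKM of at least 0.1, other filters and scalings, a replicate block and leaving out each library. The tests were also run on simulated counts with 100 genes changed 2-fold and 100 changed 4-fold. Of the DESeq2 calls, 69 of 212 were false in SCI vs Sham, 67 of 216 in SCI + SCS vs SCI and 62 of 221 in SCI + SCS vs Sham. For edgeR these were 3 of 93, 12 of 140 and 9 of 132, and it recovered 18, 40 and 43% of the 2-fold changes. These rates belong to that setting and need not hold for the data. Intervals and limits from counts cover counting error only.

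Besides the 8 genes, the text names up to 3 genes per list group and comparison (called, no overlap of libraries, largest |log2FC|), up to 4 called in the opposite direction, the 4 smallest p-values in SCI + SCS vs SCI, and the 3 genes most like each of the 8 at a mean of at least 1 CPM; not every gene taken by the rule is described, and some are not reported here. Dcc and Mdga1 were named outside it, after their values were seen. Adgrb1 was matched through its gene number. Nlgn2, Lrrtm1 and Lrfn1 were not analysed.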

Additional observations from a re-analysis of the deposited data

How the results depend on the processing

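Under every alternative but scaling on neuron markers, each of the 8 genes kept its direction in each comparison. Scaled on the 12 neuron markers, the median log2FC of all genes tested moved to 2.28 (SCI vs Sham), -1.11 (SCI + SCS vs SCI) and 1.15 (SCI + SCS vs Sham), and that of the 8 genes to -0.047, -0.074 and -0.14, with 0 called. Values turned to 0.19 for Cbln4, 0.86 for Grid1, 0.90 for Nrxn2 and 0.16 for Nlgn3 in SCI vs Sham, to -0.18 for Cbln4, -0.33 for Grid1, -0.36 for Nrxn2 and -0.37 for Nlgn3 in SCI + SCS vs SCI, and to 0.010 for Cbln4, 0.53 for Grid1 and 0.54 for Nrxn2 in SCI + SCS vs Sham. Partner calls became 1 lower and 45 higher, 17 lower, and 1 lower and 22 higher in the same order. The partner medians were 1.20, -0.52 and 0.53, against 2.28, -1.11 and 1.15 over all genes tested. The share of all genes called under this scaling is not reported here, so nothing is read from these counts. On log2(FPKM + 1) the medians were -1.25, 0.59 and -0.68, since the pseudocount shrinks low genes. With |log2FC| over 1, partner calls were 45 lower and 1 higher in SCI vs Sham, and 21 lower and 1 higher in SCI + SCS vs Sham. The share of all genes called at that threshold is not reported here. In SCI + SCS vs SCI, DESeq2 called 34 partner genes and 7 of the 8, and an unadjusted p under 0.05 gave 48 higher, 2 lower and 8. Leaving out 1 library gave 0 to 3 partner genes higher and 0 to 2 of the 8 there, and 10 to 51 lower, 1 to 4 higher and 3 to 7 of the 8 in SCI + SCS vs Sham. Whether the replicate numbers pair the rats is not given in the sources used here. Between libraries of the same number, correlations of deviations ran from -0.06 to 0.24, -0.20 to 0.00 and -0.33 to 0.02 in the 3 comparisons. In the same order, 4, 0 and 0 of 6 libraries correlated best with their own number. With the replicate block, SCI + SCS vs Sham had 6 partner genes lower, 1 higher and 1 of the 8 called, and SCI vs Sham kept 62 of 63 partner calls and gained 6. The cause was not tested for any of these. Of the values of single genes, 369 lay within 1 SD between replicates of the value reported, and 11 of the rest had the other sign. Depth limits Nlgn1, C1ql4 and Nxph2 in SCI libraries.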
